A study of Homo sapiens with 2 samples.

Results

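The genes for the proteins of the cytosolic ribosome were compared between Ca9-22 cells that carried a DLEU1 vector and Ca9-22 cells that carried an empty vector. Ca9-22 is an established line of oral squamous cell carcinoma (OSCC), and DLEU1 is a long noncoding RNA. Members were chosen by name: RPL or RPS with digits and at most one of the letters A, L, X or Y with digits, or RPLP0, RPLP1, RPLP2 or RPSA. RPS6 kinase names, RPS4Y1, RPS4Y2 and pseudogene names were left out. A total of 82 of 43317 gene names met the rule, 51 for the large subunit and 31 for the small subunit, and they were measured by 165 probes. RPL10 and RPSA were not analysed here. The rule itself used names and no measured value, but earlier results of these data were known when it was chosen.

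Cytosolic ribosomes translate nearly all cellular mRNAs. Each ribosome joins a small subunit, which binds and decodes the mRNA, to a large subunit, which forms peptide bonds and releases the new chain through an exit tunnel. The mRNAs of the ribosomal proteins are among the most abundant of a dividing cell. Most of these mRNAs begin with a C followed by a run of pyrimidines, the 5′ terminal oligopyrimidine (TOP) tract, through which the kinase complex mTORC1 and the RNA-binding protein LARP1 adjust their translation.

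There were 2 groups with 1 array each. The DLEU1 vector group carried a pLenti6/V5-DEST lentivirus with the full-length DLEU1 cDNA, and the control vector group carried the empty lentivirus. Both were kept in blasticidin for 2 weeks and grown in RPMI-1640 with 10% fetal bovine serum at 37 °C, so both held an integrated vector and had passed the same drug selection. The sources used here do not describe isolated clones. Total RNA (100 ng) was labelled with Cy3 and hybridised to a 1-colour Agilent array. With 1 array per vector there was no replicate, so no test was possible and no p-value is given. A difference between the vectors cannot be told apart from a difference between any 2 cultures or arrays.

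All values below are log2 signals after the 75th percentile of the array was subtracted, called levels, and every difference is DLEU1 vector minus control vector. A level of 0 is therefore the 75th percentile of the array. The value of a gene is that of its brightest probe marked well above background (detected) on both arrays. Levels of different probes are not compared with each other, since probes differ in how strongly they bind. In bulk RNA a lower level from fewer cells of a type and from less RNA per cell cannot be told apart.

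DLEU1 itself was examined first. It rested at a level of 3.17 in control vector cells and 5.91 in DLEU1 vector cells, 6.67-fold higher, in the direction of the label. All 8 markers of squamous epithelium were detected on both arrays, and they summed to a level of 8.68 in control vector cells and 10.66 in DLEU1 vector cells. Of 6 fibroblast markers, 2 were detected in control vector cells and 3 in DLEU1 vector cells, and COL1A2, COL3A1 and DCN were detected on neither array. Of 3 leukocyte markers 2 were detected on each array, at a summed level of -0.012 and -0.057, and of 3 endothelial markers 2 were detected on each. The summed fibroblast level was 0.63 and 4.49, and the summed endothelial level -1.17 and 1.46, in the same order. Among the epithelial markers KRT17 had the highest difference, at 3.60 and 6.69 and EPCAM the lowest, at 6.22 and 5.44. COL1A1 was at 0.47 and 4.47 and PDGFRB at -3.51 and -3.84 while PTPRC was at -1.74 and -1.28. VWF was at -2.33 and 1.37 and CDH5 at -2.14 and -2.73. The part of these marker differences in the results below was not tested. A strip of rows 1 to 120 and columns 33 to 47 on the DLEU1 vector array held unusually many low spots: 28.2% of the spots lit on the control vector array were at least 2-fold lower there, against 12.6% outside it. It held 2 of the 165 member probes, the only probe of RPL41 and 1 of the 4 probes of RPL5.

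To show what sets the TOP tract apart, 30 bases around the annotated transcription start are printed for 14 members (RefSeq, GRCh38.p14), 10 before the start and 20 from it on. They were taken from the low and the high end of the range of differences, with some paralogues, RPLP0 and RPS6, and include windows with and without a tract. Capitals mark the tract, a C at the start with at least 5 pyrimidines in a row, and a window in lower case holds none at that exact base.
RPL27A, chr11:8682782-8682811, plus strand: gaaggccttcCTTTTTCgtctgggctgcca
RPL35, chr9:124861938-124861967, minus strand: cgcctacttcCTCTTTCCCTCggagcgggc
RPS15, chr19:1438386-1438415, plus strand: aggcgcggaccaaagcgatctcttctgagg
RPL27, chr17:42998409-42998438, plus strand: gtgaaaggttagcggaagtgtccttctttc
RPLP0, chr12:120201092-120201121, minus strand: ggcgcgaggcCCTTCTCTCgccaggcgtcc
RPS6, chr9:19380217-19380246, minus strand: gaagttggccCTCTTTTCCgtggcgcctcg
RPS24, chr10:78033853-78033882, plus strand: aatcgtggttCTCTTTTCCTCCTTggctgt
RPL10A, chr6:35468391-35468420, plus strand: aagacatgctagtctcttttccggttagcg
RPS28, chr19:8321486-8321515, plus strand: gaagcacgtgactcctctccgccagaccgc
RPL22, chr1:6199576-6199605, minus strand: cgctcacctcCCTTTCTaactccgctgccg
RPL22L1, chr3:170870176-170870205, minus strand: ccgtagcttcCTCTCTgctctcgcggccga
RPS27, chr1:153990752-153990781, plus strand: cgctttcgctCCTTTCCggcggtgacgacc
RPS27L, chr15:63157458-63157487, minus strand: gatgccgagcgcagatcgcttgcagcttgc
RPL7L1, chr6:42879606-42879635, plus strand: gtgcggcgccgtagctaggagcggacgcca

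RefSeq promoters were matched for 65 of the 82 members. At 1 or more of their annotated starts 45 of these (69.2%) held the tract, against 5.14% of all 27305 genes with a promoter sequence. Where the run could begin within 5 bases of the start, the shares were 80.0% and 25.2%, so part of the lower-case windows, such as those of RPL10A and RPS28, hold their pyrimidines a few bases away. The paralogues RPS27L and RPL7L1 held no tract at the start, while RPL22L1 did.

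The ribosomal protein genes were lower by a small and even amount with the DLEU1 vector. Of the 82 members 81 had a value, and RPL39L was detected on neither array. Of the 81, 78 were below 0, beside 54.2% of the 20246 genes detected on both arrays. The median difference of the members was -0.37 (quartiles -0.47 and -0.27), or 1.29-fold, and that of all genes -0.070 (quartiles -0.52 and 0.41). No member was at least 2-fold higher, beside 9.18% of all genes, and 1 member, RPL27A, was at least 2-fold lower, beside 9.78%. Past 1.5-fold were 9 members on the lower side, beside 22.0% of all genes, and 1 on the higher side, beside 18.4%. The SD over members was 0.30, against 0.90 over all genes. A total of 66 members lay between -0.60 and -0.15, and the members were spread over 21 chromosomes.

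**Figure D1:**
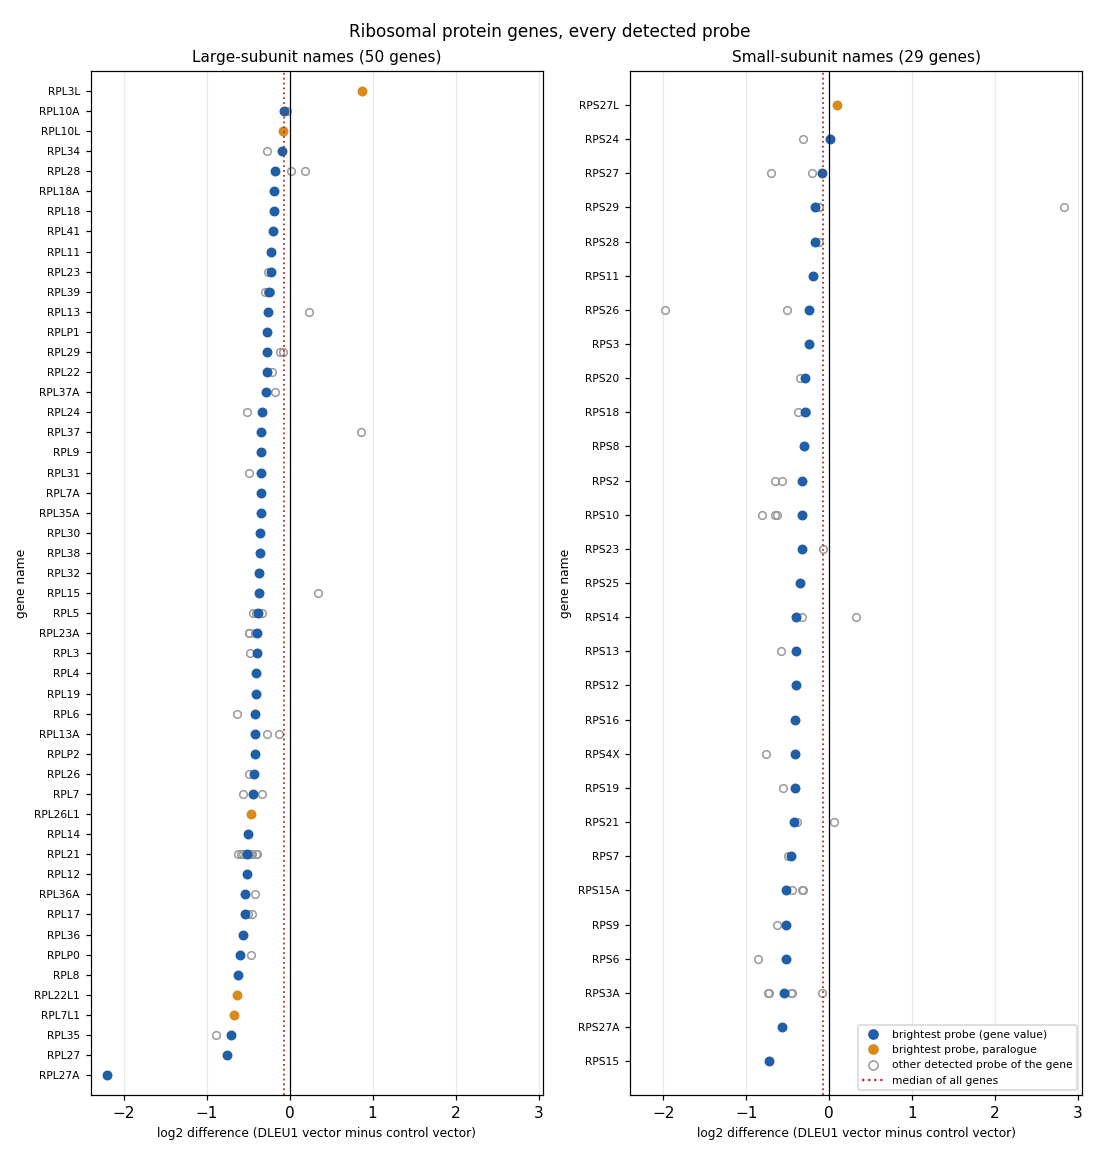
Log2 difference (DLEU1 vector minus control vector, x axis) of 79 of the 81 measured ribosomal protein genes (y axis), 50 of the large and 29 of the small subunit. Filled points are the brightest probe of a gene (orange for paralogues), open points its other detected probes, the black line is 0 and the dotted line the median of all genes, -0.070. Most filled points lie in a narrow band left of 0, while RPL27A and single dim probes of RPS26 and RPS29 lie far from it.

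Most of these genes gave a high signal. Of the 81 members 77 had a mean level of at least 6, where only 924 other genes lay. These other bright genes were lower too, with a median of -0.28, an SD of 0.65 and 68.4% of them below 0. Among them 8.12% were at least 2-fold lower and 4.22% at least 2-fold higher. The 77 bright members had a median of -0.36 and an SD of 0.17, 75 of them were below 0, and none was past 2-fold. Within levels of 8 to 9, the 39 members had a median of -0.40 (SD 0.18) and the 133 other genes -0.29 (SD 0.60). From level 9 upwards the 24 members had -0.35 (SD 0.13) and the 40 other genes -0.22 (SD 0.38). In both ranges the members' median lay inside the quartiles of the other genes (-0.49 and 0.16, then -0.36 and -0.060), and their SD was the smaller one. These are descriptions of 1 pair of arrays, with no test.

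**Figure D2:**
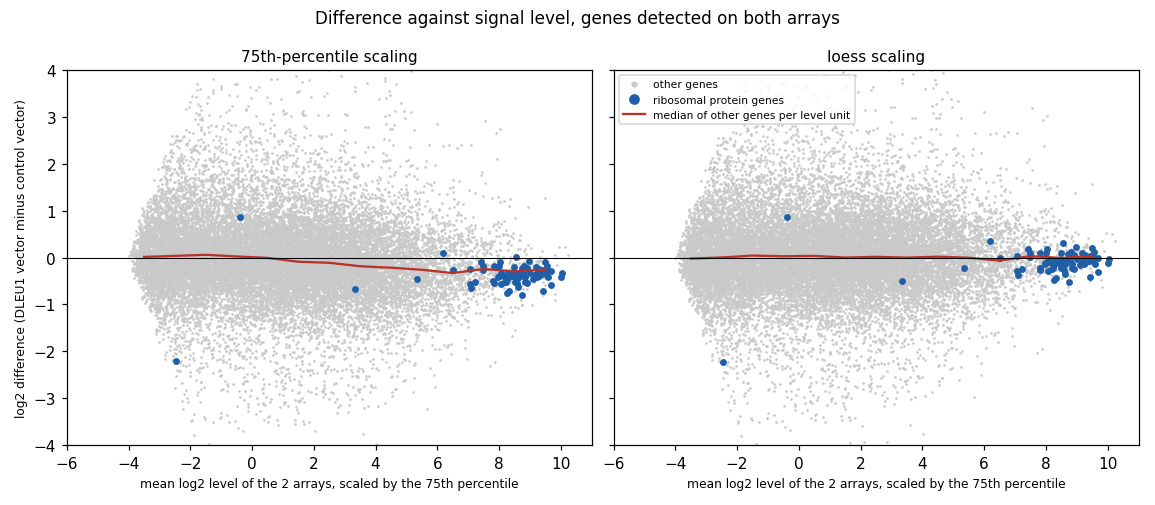
Log2 difference (y axis) against the mean log2 level of both arrays (x axis) for every gene detected on both arrays, scaled by the 75th percentile (left) and by loess (right). Blue points are ribosomal protein genes, grey points other genes and the red line the median of other genes per unit of level; 50 genes beyond 4 log2 units are not shown. The red line falls below 0 at high levels on the left, where the members lie, and stays near 0 on the right, where the members' median is -0.086.

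The size of the shift depended on how the arrays were scaled. A different constant (the array median, the 75th percentile over detected probes or none) moved the median of all genes to between -0.18 and 0.041 and that of the members to between -0.49 and -0.26, and their distance stayed at -0.30. With loess, which removes the trend with brightness, the members' median was -0.086 and that of all genes 0.0083. There 58 members were below 0 and 23 above, beside 49.5% of all genes below 0. With quantile normalization the medians were -0.13 and -0.026. The E1A probes, which read spike-in RNAs meant to be added in equal amount to each labelling, were higher on the DLEU1 vector array by 0.59 at a mean level of -1.95 and by 0.36 at 6.21. Near the members' median level of 8.58 they were higher by 0.50 at 8.13 and by 0.12 at 8.46, so probes at neighbouring levels differed from each other, and at 10.10, the level of the brightest members, they were lower by 0.16. Scaling by their mean put the members at -0.73 and all genes at -0.43. When their trend with level was taken off, the members were at -0.51 and all genes at -0.57, so that the members were then slightly higher relative to all genes. At least 2-fold lower were then 6 members with the spike-in mean, beside 19.7% of all genes, and 7 with the trend taken off, beside 25.7%. The spike-in settings were added after the data were seen.

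**Figure D3:**
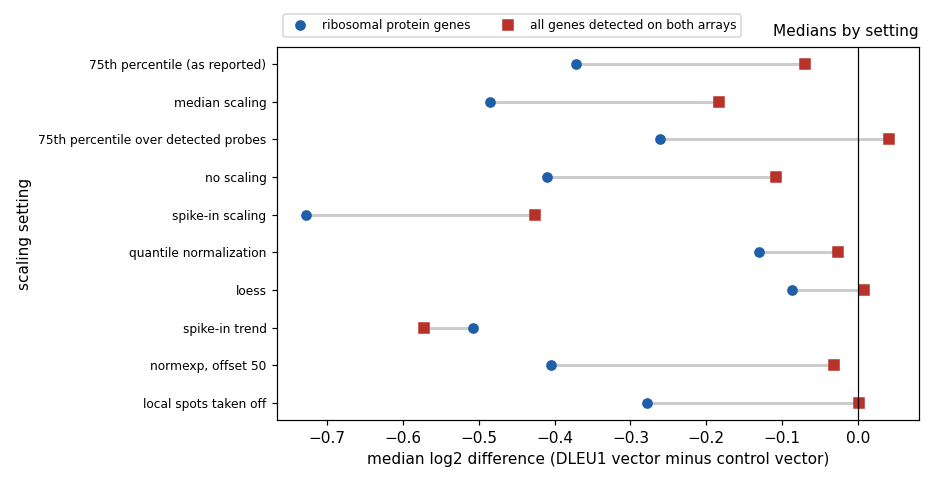
Median log2 difference (x axis) of the ribosomal protein genes (blue circles) and of all genes detected on both arrays (red squares) under 10 settings (y axis). The members' median is below 0 in each and ranges from -0.73 with spike-in scaling to -0.086 with loess; it lies left of the all-gene median except with the spike-in trend.

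The error of a single value can be read from repeats within the arrays, which hold no variation between cultures. For 282 detected probes that were printed more than once, spots of the same probe had an SD of 0.080 in their log2 difference. The RPL30 probe had 10 spots, whose differences ran from -0.45 to -0.29 (SD 0.051). Different probes of a member at a mean level of at least 6 had an SD of 0.11 (89 probes of 34 genes), and those of other genes 0.17 (116 probes of 50 genes). For these 34 members the difference of the second brightest probe lay a median of 0.11 from that of the brightest, and both were below 0 in 33. Pearson's r across these genes was 0.65 (Spearman's rho 0.53), given as a description, since both probes shared the same RNA, array and trend with brightness. In some pairs, such as those of RPS28, RPL29 and RPL39, the probes also overlapped on the genome, so they were not separate readings. The second RPL13A probe was placed on chromosome 10 and the brightest on chromosome 19. Across the 77 bright members, whose probes shared both arrays, Pearson's r of the difference was -0.075 with the GC content of the probe and -0.051 with the mean level.

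**Figure D4:**
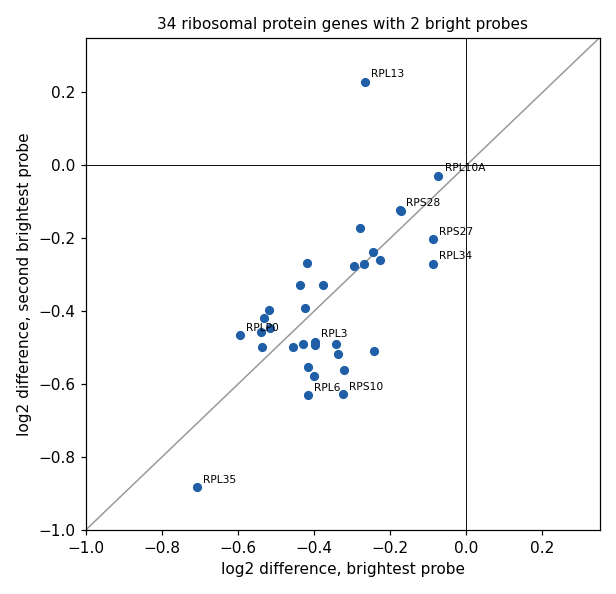
Log2 difference of the second brightest probe (y axis) against that of the brightest probe (x axis) for the 34 ribosomal protein genes with both at a mean level of at least 6; the diagonal marks equal values. RPL35 is lowest by both probes and RPL10A and RPS28 are near the top by both, while RPL13 is below 0 by its brightest probe only.

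Among large-subunit genes, the median difference was -0.37 (50 genes), and among small-subunit genes -0.39 (31 genes). The acidic stalk recruits the factors of elongation. RPLP0, its base, was at 9.98 in control vector cells and 9.38 in DLEU1 vector cells, which makes a difference of -0.59. RPLP2 went from 9.43 to 9.01 (-0.42) and RPLP1 from 9.56 to 9.29 (-0.27). The second probe of RPLP0 gave -0.47, near the value of RPLP2, and the SD between probes of a gene was 0.11. Whether the stalk genes differed from each other was not tested. RPL12, which sits beside the stalk, had -0.52.

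RPL5 and RPL11 form a complex with 5S rRNA that joins the large subunit and, when free, binds the p53 regulator MDM2. RPL5 was at 9.38 and 9.01, a difference of -0.38, and its 4 probes ranged from -0.44 to -0.33, the probe in the strip at -0.44 included. RPL11 was at 8.84 and 8.62, a difference of -0.22. RPL3, which reaches towards the peptidyl transferase centre, was at 8.60 and 8.20 (-0.40), and its second probe gave -0.48. RPL8, another protein near this centre, was at 8.94 and 8.31, a difference of -0.63.

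All 9 members at the exit tunnel and its rim were below 0, beside 78 of the 81 members and 68.4% of other bright genes. The median of the 9 was -0.40, and that of all members -0.37. RPL35, on the rim, was lowest of these, at 9.78 and 9.07 (-0.71). Its other probe, on other bases of the same transcript, gave -0.88. Both were beyond the median of the 9 by more than the SD between probes, which holds no variation between cultures. Whether RPL35 differed from other members was not tested. RPL39, a small protein lining the tunnel, was highest, at 8.94 and 8.70 (-0.24), and its 4 probes lay within -0.30 and -0.24. RPL17 had -0.54, with 3 probes between -0.54 and -0.45.

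The largest difference among the 81 gene values was that of RPL27A, a large-subunit protein. Its only probe (NM_000990, chr11:8711092-8711151, hg19, plus strand) was dim on both arrays, with a processed intensity of 95.1 in control vector cells and 20.2 in DLEU1 vector cells. On the log2 scale these were -1.35 and -3.55, a difference of -2.20 or 4.59-fold. After normexp background correction the difference was -0.94, below 2-fold. Whether this dim probe reads the main RPL27A mRNA was not tested. RPL27, a different protein despite its name, was bright, at 8.65 and 7.89 (-0.76). Among the other large-subunit genes RPL21 had the most probes, and all 9 lay between -0.63 and -0.40. The probe at -0.47 was placed on chromosome 10, the others were on chromosome 13, and some overlapped each other. RPL41, the shortest ribosomal protein, had -0.20, from a probe inside the strip of low spots.

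Of the large-subunit genes nearest to 0, RPL10A was at 9.01 and 8.94 (-0.073) and its second probe gave -0.028. RPL34 was at 8.07 and 7.98 (-0.088), although its second probe gave -0.27. RPL28 was at 7.58 and 7.40 (-0.17), and RPL13 was at -0.27 by its brightest probe but at 0.23 by a second bright one. With loess RPL10A and RPL34 were above 0, at 0.21 and 0.19, and RPL28 at 0.10.

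In the small subunit, RPS15, a head protein mutated in some leukaemias, was among the lowest, at 8.67 and 7.95 (-0.72). RPS27A, which is made as a fusion with ubiquitin, was at 8.34 and 7.77 (-0.56). Each of these had 1 probe. With loess they were at -0.44 and -0.28, both below the members' loess median of -0.086.

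RPS6, the substrate of the S6 kinases, was at 8.46 and 7.93, a difference of -0.52. RPS19, the gene first linked to Diamond-Blackfan anaemia, was at 9.05 and 8.63 (-0.42), and its second probe gave -0.55. The 4 probes of RPS10 ranged from -0.81 to -0.32, a wider range than that of most members, and the brightest, which gives the gene its value, was the nearest to 0.

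Small-subunit genes close to 0 were led by RPS24, at 8.55 and 8.56 (0.015). It was the only member outside the paralogues that was not lower, and it was at -0.023 without scaling. RPS27 was at 9.53 and 9.45 (-0.089), RPS28 at 9.63 and 9.46 (-0.17) and RPS29 at 8.90 and 8.73 (-0.17). The second probes of these 3 gave -0.20, -0.12 and -0.12. With loess they were above 0, at 0.20, 0.12 and 0.11.

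Some dim probes of member genes departed from the bright ones. One RPS29 probe, made against NM_001030001 (chr14:50044074-50044133, hg19, minus strand) and 6225 bases from the nearest other RPS29 probe, was at 1.11 in control vector cells and 3.94 in DLEU1 vector cells. Its difference of 2.83, or 7.13-fold higher, stood against -0.17 to -0.12 for the 3 probes of NM_001032. A dim RPS26 probe was at 0.37 and -1.61 (-1.98), while its 2 bright probes gave -0.24 and -0.51. A dim RPL37 probe gave 0.86, against -0.34 for the bright one. Of the 162 detected member probes 151 were lower, beside 54.4% of all 26279 detected probes, 2 were at least 2-fold lower (9.78% of all) and 1 at least 2-fold higher (8.98% of all). Of 14 probes under a level of 2, 9 were lower and 5 higher, while of 132 probes at a level of at least 6, 129 were lower. Another 3 member probes, among them the only one of RPL39L, were detected on neither array.

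The paralogues are relatives of a core protein that are often restricted to certain tissues. RPL22L1, which can take the place of RPL22, was at 7.42 and 6.78 (-0.64), and RPL22 was at 6.64 and 6.36 (-0.27). The difference of RPL22L1, from 1 probe, was lower by 0.36 than that of RPL22, and also by 0.36 with loess. This exceeded the median gap of 0.11 between probes of a member but not the largest gap, 0.50. RPL7L1 was at 3.68 and 3.01 (-0.67), against -0.44 for RPL7.

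RPL26L1 (5.58 and 5.11, a difference of -0.47) differed from RPL26 (8.49 and 8.06, a difference of -0.43) by -0.039, less than the median gap between probes. RPS27L, a p53 target, was at 6.13 and 6.23 (0.099), 0.19 above RPS27. RPL3L, the form known from striated muscle, was dim, at -0.83 and 0.042 (0.87), against -0.40 for RPL3. RPL10L, a form of RPL10 known from the testis, was at 7.46 and 7.37 (-0.085). RPL10 was not analysed here, and whether the RPL10L probe also reads RPL10 mRNA was not tested. RPL39L has no value, and its relative RPL39 is given above.

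The sign of the smallest differences turned with the scaling: RPS27L was at -0.014 with median scaling, and RPL10L at 0.19 with loess. Near copies were a further limit on single names. A total of 14 member probes of 11 genes shared at least 25 bases in a row with a probe of another name. Pseudogene names, which the rule left out, were detected with 26 probes, of which 22 were lower, beside 54.4% of all detected probes. Their median was -0.38, and all 13 at a level of at least 6 were lower. The pseudogene probes RPL21P44 (-0.52), RPS20P27 (-0.31) and RPL13AP3 (-0.36) lay near their parents RPL21 (-0.52), RPS20 (-0.29) and RPL13A (-0.42), and how far they share signal was not tested. The probes named RPSAP58 lay between -0.92 and -0.88.

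Whether members with and without a TOP tract differed was set beside the same split of other genes. The median difference was -0.36 for the 45 members with a tract at the start and -0.40 for the 20 without. For other measured genes it was -0.12 (722 with a tract) and -0.11 (10012 without). The motif CCGGAAG, a binding sequence of ETS factors, was in the 300-base promoter window (250 before the start) of 23 of 65 members (35.4%) on either strand, against 12.2% of all genes, and TATAAA in 7 members (10.8%), against 14.0%. Members with and without CCGGAAG had medians of -0.40 and -0.36, and other measured genes -0.24 (2204 with the motif) and -0.066 (8530 without). A match is a description of the sequence, not a bound site.

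Lists around the ribosome lay on either side of the members' median. The mitochondrial ribosomal protein genes, whose products translate the mRNAs of the mitochondrial genome, had a median of -0.83: 76 of 77 were below 0, and 24 were at least 2-fold lower, beside 54.2% and 9.78% of all genes. MRPL39 was lowest, at 5.07 and 3.45 (-1.62), and MRPL33 highest, at 5.51 on both arrays. With loess the median was -0.61, so its distance to the cytosolic members, at -0.086, remained. Their median level was 4.51 and that of the members 8.58, so the lists lay at different signal.

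The translation factors had a median of -0.56 over 46 detected genes: 43 were below 0 and 8 at least 2-fold lower, beside the same shares of all genes (54.2% and 9.78%). EIF3I, a subunit of the initiation factor eIF3, was lowest, at 6.01 and 2.04 (-3.97), but its probe lay in the strip of low spots, as did those of ABCE1 (-1.75) and EIF3H (-0.56). Without these 3 the median of the other 43 was -0.54, and 6 were at least 2-fold lower. EIF4A2, a helicase of initiation, was highest, at 5.49 and 6.40 (0.91). The 7 genes for dedicated chaperones and carriers of ribosomal proteins were all below 0, beside 54.2% of all genes. Their median was -0.89, from BCCIP at -1.51 to TSR2, the chaperone of RPS26, at -0.53.

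Genes of 14 other TOP mRNAs had a median of -0.20, from EEF1G (7.67 and 6.33, a difference of -1.34) to EIF4B (0.26). Of these, 10 (71.4%) were below 0, beside 54.2% of all genes and 68.4% of the bright genes outside the members. Of 16 genes of mTORC1 and the regulation of TOP mRNAs, 11 (68.8%) were below 0, beside 54.2% of all genes. Their median was -0.33. RPTOR, the scaffold of mTORC1, was lowest, at 4.47 and 3.28 (-1.18). PDCD4, an inhibitor of initiation that S6 kinase marks for degradation, was highest, at -0.15 and 1.84 (1.99). LARP1 had -0.69.

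Of the ribosomal proteins whose names the rule does not take, FAU, which encodes RPS30 fused to a ubiquitin-like protein, was at 8.87 and 8.16 (-0.71). RPL36AL was at 7.99 and 7.62 (-0.37). GNB2L1, the name in the file for RACK1 of the small-subunit head, was at 6.91 on both arrays. FAU and RPL36AL lay within the range of the members, and GNB2L1 lay beside RPS24 at its upper end.

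**Figure D5:**
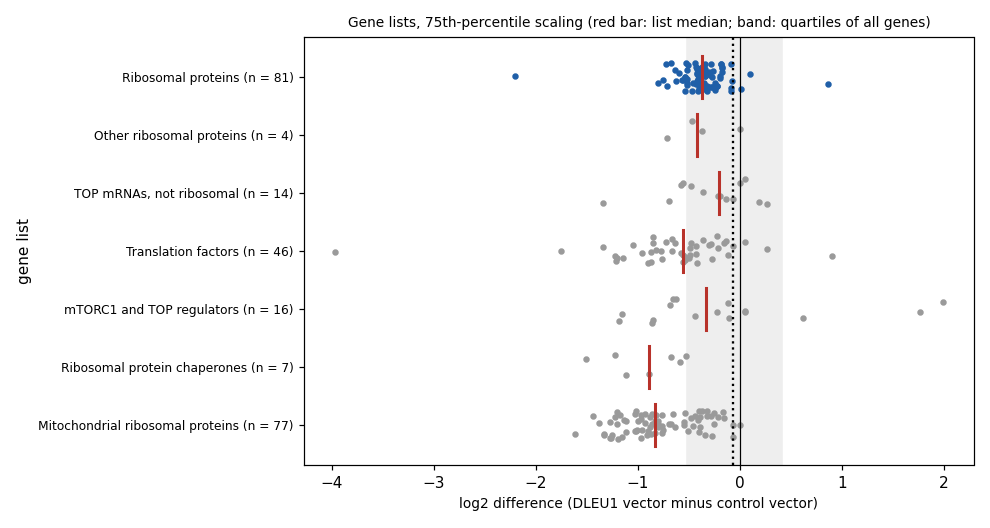
Log2 difference (x axis) of each gene detected on both arrays, by gene list (y axis), under 75th-percentile scaling. Points are genes, spread vertically for visibility; red bars are list medians, the grey band holds the middle 50% of all genes and the dotted line is their median. The ribosomal proteins have the smallest distance between quartiles, 0.20, around a median of -0.37. The mitochondrial ribosomal proteins and chaperones lie further left, at -0.83 and -0.89.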

How the data were processed

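Total RNA of 2 cultures was labelled with Cy3 and hybridised to 1 array each (SurePrint G3 Human GE). The deposited intensity values were extracted by the authors with Agilent Feature Extraction 10.7 (10.7.3.1 per the file headers), which subtracted local background, detrended each array and replaced the lowest signals by surrogate values. The arrays were not normalized to each other. The authors' series table held the same processed intensity, rounded, with differences of at most 0.497%. Probe positions were on hg19.

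Control spots (2075 of 62976) and outlier spots were left out. Spots of a probe were averaged on the log2 scale, and the 75th percentile over the 58201 probes was subtracted (7.92 for control vector cells, 7.88 for DLEU1 vector cells). A size of 2-fold was used to count genes, not as a test. No spot was saturated (0 spots). Calculations used Python 3.11.15, pandas 2.3.3 and statsmodels 0.14.6, with normexp from limma 3.58.1 in R 4.3.3, and were tested on simulated data. A total of 0 columns of per-sample values were unused.

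Named were members at 2-fold or more, the 10 highest and 10 lowest, stalk, 5S RNP and disease-linked members, paralogue pairs, ribosomal proteins outside the rule, the ends of each other list and DLEU1. A few genes that this rule takes are not reported here. Other members were named after their values were seen. The members and lists were chosen with earlier results of these data known. Alternatives were other scalings (median, detected probes, quantile, loess with span 0.3, none), normexp with offset 50, the series values, other filters, probe summaries and fold sizes, and, added after the data were seen, spike-in, position and level settings. Sequences were from RefSeq tables on GRCh38.p14. The number of arrays limits the precision.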

Additional observations from a re-analysis of the deposited data

How the results depend on the processing

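The median of the ribosomal protein genes was below 0 under every setting tried, but where 0 lies depends on the scaling. The members' distance to the median of all genes was -0.30 as reported and -0.095 with loess. It ranged from -0.41 without a filter on dim probes to 0.064 with the spike-in trend taken off. No paired analysis was possible because each vector had 1 array, and for the same reason no replicate could be left out. The medians of the ribosomal protein, translation factor and mitochondrial ribosomal protein genes, in this order, were -0.49, -0.67 and -0.94 with median scaling. They were -0.26, -0.44 and -0.72 when only detected probes set the percentile, -0.13, -0.41 and -0.66 with quantile normalization, and -0.086, -0.37 and -0.61 with loess. They were -0.73, -0.91 and -1.19 with spike-in scaling, and -0.51, -1.03 and -1.24 with the spike-in trend taken off. With the median of the 100 nearest spots taken off, the ribosomal protein genes had -0.28 and the mitochondrial ones -0.74. The last 3 settings were chosen after the data were seen, and the cause of these shifts was not tested.

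The 1 ribosomal protein gene at least 2-fold lower was RPL27A. The count was 0 with normexp and where both arrays had to reach a signal of 100, which leaves RPL27A out. It was 6 when scaled to the spike-in mean, beside 19.7% of all genes, and 7 after the spike-in trend was removed, beside 25.7%. At a 1.5-fold threshold 9 were lower, beside 22.0% of all genes, and 1 higher, beside 18.4%. Of 479 values of 32 named members under other settings, 262 stayed within the spot SD of the reported value and 39, of 12 members, changed sign. Some settings could not move most of these values: other filters on dim probes kept the brightest probe, and probe means left members with 1 probe unchanged. The count of 262 is therefore no measure of stability. RPS29 was at 0.61 with the mean of its probes, through its NM_001030001 probe. Without the strip of low spots the members' median was -0.37.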

Other observations

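The rule left out the genes named as RPS6 kinases, a mixed group that was measured by 19 probes of 10 names. RPS6KA2, a kinase of the RSK family, was at 0.099 in control vector cells and 2.70 in DLEU1 vector cells (2.60), and its 2 other probes were detected in DLEU1 vector cells only. RPS6KA5 was at 1.76 and 2.75 (0.99), and its other detected probe gave 2.08. RPS6KB2, an S6 kinase, was at 6.22 and 5.35 (-0.86), and RPS6KB1, the other S6 kinase, at 0.90 and 0.95 (0.056), with -0.23 and 0.020 by its other probes. RPS6KA1 had -0.40, RPS6KA4 -0.35 and RPS6KC1 -0.28. RPS6KA3 had 0.15 by its brightest probe and -0.63 by its other detected probe. RPS6KA6 and RPS6KL1 were detected on neither array. These kinase genes were thus on both sides of 0, over a range from -0.86 to 2.60, while 78 of the 81 ribosomal protein genes were below 0. The kinase probes all lay below the members' median level of 8.58, and this contrast was not tested.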
